A study of Homo sapiens with 9 samples.

Results

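Ligands of blood vessel growth, oxygen-responsive genes and the stanniocalcins were followed across 3 groups of FaDu cultures: VEGFA, VEGFC, ANGPTL4 and ADM, STC1 and STC2, and EGLN3, CA9, NDRG1 and BNIP3. These 10 genes, of the 58735 in the deposited count table, were taken by gene name, and each name stood on 1 row. They were selected on differences between these same groups that had been seen in these counts, so their levels and differences are given as a description, without p-values. FaDu is an established line of squamous carcinoma of the human hypopharynx, grown here in MEM with serum. RNA was sequenced in bulk from 9 cultures given as biological replicates, 3 in each group. Libraries labelled KD_OE came from cells given as AMIGO2 knockdown with CAPN2 overexpression. Libraries labelled KD_NC came from cells given as AMIGO2 knockdown, and libraries labelled NC_NC from control cells of wild-type genotype. No group had a drug or low-oxygen treatment in its labels. How AMIGO2 was knocked down, how CAPN2 was overexpressed and when cells were collected could not be read from the labels, and all cells were of 1 line.

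Totals lay between 15158607 and 19737562 counts, at which 3 counts corresponded to 0.152 to 0.198 CPM, the count of a gene scaled to a common library size. Library sizes were adjusted with edgeR's TMM factors, from trimmed means of M values. AMIGO2, which encodes a leucine-rich cell-surface protein, averaged 39.0 ± 3.79 CPM in the libraries labelled KD_OE, 27.7 ± 3.41 CPM in those labelled KD_NC and 27.6 ± 1.73 CPM in those labelled NC_NC (SD, n = 3 each). The label of a knockdown was therefore not borne out by lower AMIGO2 counts, and every direction below compares libraries by their labels alone. CAPN2, the large subunit of calpain-2, averaged 499 ± 1.29, 418 ± 20.3 and 462 ± 13.9 CPM in the same order of groups. The libraries labelled KD_OE stood 1.19-fold above those labelled KD_NC. They stood 1.08-fold above those labelled NC_NC, a difference that was not called. The label of an overexpression was thus matched by a small difference in counts only. All 12 squamous epithelial markers were measured, with sums of 6208 to 6973 CPM (KD_OE), 6205 to 7714 CPM (KD_NC) and 10887 to 11522 CPM (NC_NC). KRT5 alone averaged 1616 ± 121, 1207 ± 180 and 4437 ± 133 CPM in that order. CDH1 went the other way, at 614 ± 15.8, 455 ± 25.7 and 381 ± 6.40 CPM. Of the 12, 1 was called higher and 7 lower for KD_NC against NC_NC, and 2 higher and 8 lower for KD_OE against NC_NC. Of all genes tested, 16.0% and 18.5% were called so in the first contrast, and 27.9% and 28.4% in the second. Of 12 endothelial markers 4 passed the filter on low counts, and KDR and EMCN were at 0 in all 9 libraries. The endothelial sums were 41.8 to 50.2, 78.0 to 97.4 and 60.8 to 67.2 CPM in that order, and CDH5 made 43.2 ± 2.93 CPM of the KD_NC sum. PDGFRA and LUM, 2 of 10 fibroblast and pericyte markers, were at 0, and the sums were 14.2 to 17.2, 12.6 to 15.7 and 10.4 to 13.0 CPM. HBB and HBA1, 2 of 8 blood and immune markers, were at 0, and the sums were 5.68 to 9.06, 18.9 to 25.3 and 14.7 to 18.6 CPM. Mitochondrial ribosomal RNA took 1.02 to 1.05% of counts in the libraries labelled KD_OE, 0.877 to 1.08% in those labelled KD_NC and 0.537 to 0.583% in those labelled NC_NC. The part of these shifts in the results below was not tested, and in bulk RNA fewer cells of a type and less RNA per cell cannot be told apart.

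In cells with enough oxygen, prolyl hydroxylases mark the alpha subunits of the hypoxia-inducible factors (HIF), and the von Hippel-Lindau protein then directs them to degradation. When oxygen is short, the alpha subunits persist, pair with ARNT and bind genes for vessel growth, glycolysis, pH control and mitochondrial turnover. Many of these genes also have other inputs. VEGFA and STC2, for example, are known to be induced in the integrated stress response through ATF4. In squamous carcinoma of the head and neck, CA9 protein has long been used as a tissue marker of hypoxia. Stanniocalcins are secreted glycoproteins first known in fish as regulators of calcium, and in mammals they bind and inhibit the pappalysin proteases that cleave insulin-like growth factor binding proteins.

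The 10 genes did not move as a block. In the libraries labelled KD_NC, STC1 stood 9.98-fold above its level in the libraries labelled NC_NC, and VEGFC, ANGPTL4, ADM, CA9, NDRG1, BNIP3 and EGLN3 also stood higher. VEGFA and STC2 stood lower there. Between KD_OE and KD_NC these directions were reversed for several members. VEGFA and STC2 stood 4.07-fold and 3.26-fold above the libraries labelled KD_NC, while STC1 and ANGPTL4 stood 6.40-fold and 6.85-fold below them. All 10 genes passed the filter on low counts. A gene was called at an adjusted p under 0.05 by edgeR over all 16812 genes tested. For KD_NC against NC_NC, 8 members were called higher and 2 lower, where 16.0% of all genes tested were called higher and 18.5% lower. For KD_OE against KD_NC, 4 members were called higher, 5 lower and 1 was not called, where 23.7% of all genes were called higher and 25.6% lower. For KD_OE against NC_NC, 8 were called higher, 1 lower and 1 was not called, where 27.9% and 28.4% of all genes were called higher and lower. Because the members were chosen by these contrasts, nothing is read from their counts against those shares. The contrasts share libraries, so their values are set side by side only. The median log2 difference of the members was 0.71 for KD_NC against NC_NC, -0.05 for KD_OE against KD_NC and 0.73 for KD_OE against NC_NC. Over all genes tested it was -0.01, 0.01 and 0.02.

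**Figure D1:**
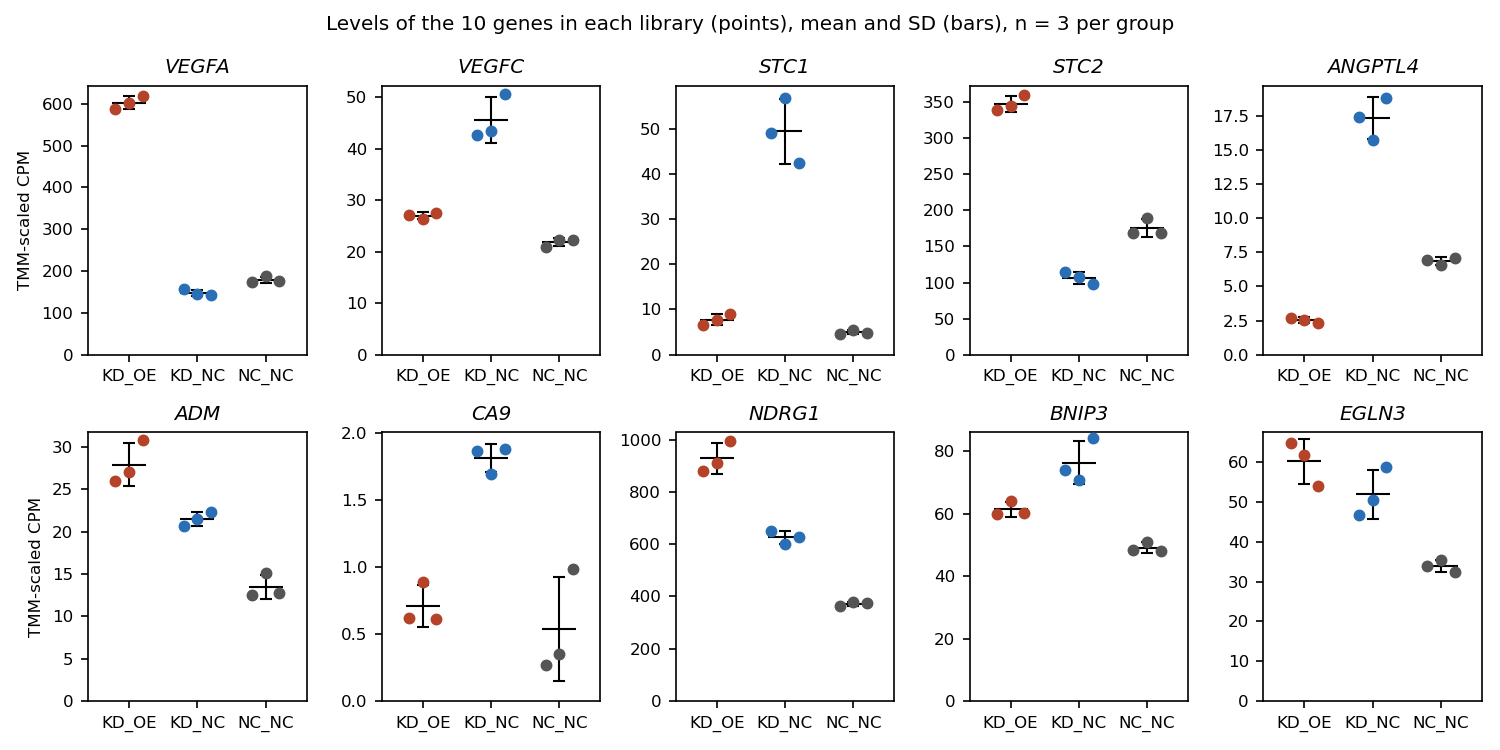
Level of each of the 10 genes in every library, in TMM-scaled CPM on a linear axis from 0 with its own range for each gene. Points are libraries, bars the mean and SD of 3 libraries labelled KD_OE, KD_NC and NC_NC. VEGFA and STC2 are highest in the KD_OE panel column, STC1, VEGFC and ANGPTL4 in the KD_NC column, and points of the groups overlap only for CA9 (KD_OE with NC_NC) and EGLN3 (KD_OE with KD_NC).

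The hypoxia-inducible factors recognise a short core, ACGTG or GCGTG, and the bases around that core are shown here because the members are known as oxygen-responsive genes. RefSeq promoter windows (GRCh38.p14) were used for 7 members: VEGFC, STC2, ANGPTL4, ADM, CA9, BNIP3 and EGLN3. VEGFA, STC1 and NDRG1 were not among them. In the 250 bases before the RefSeq start, 6 of the 7 members (85.7%) held the core on either strand. So did 43.1% of 27305 promoter windows in all and 56.7% of the 10947 windows of tested genes. EGLN3 held none in its window. The stretches below run 5′ to 3′ on the gene's strand, with the core in capitals, as CACGT or CACGC where it lies on the opposite strand. They cover chr4:176792965-176792994 (minus strand) for VEGFC, chr5:173328626-173328655 (minus strand) for STC2, chr19:8363908-8363937 (plus strand) for ANGPTL4, chr11:10304959-10304988 (plus strand) for ADM, chr9:35673897-35673926 (plus strand) for CA9 and chr10:131982015-131982074 (minus strand) for BNIP3.
VEGFC: agcccgggctcggCACGCtccctccctcgg
STC2: catacaCACGCACGCaaacGCGTGgccgcc
ANGPTL4: gggaaagaagagtCACGTctcccacggttc
ADM: agagcaggagcgcGCGTGgctgaggaaaga
CA9: ctcgtttccaatgCACGTacagcccgtaca
BNIP3: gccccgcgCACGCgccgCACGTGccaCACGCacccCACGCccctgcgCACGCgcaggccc
STC2 held 3 matches within 30 bases and BNIP3 held 6 within 60 bases, of which 2 were both strands of 1 palindrome, CACGTG. VEGFC, ANGPTL4, ADM and CA9 held 1 each. Counted back from the RefSeq start, where -1 is the last base before it, the first matched base was at -59 in VEGFC, -234 in ANGPTL4, -101 in ADM and -18 in CA9. The stretches of STC2, ADM and CA9 lie in annotated GENCODE exons, since these genes have transcripts that start further upstream. Those of VEGFC, ANGPTL4 and BNIP3 lie in none, though the ANGPTL4 window lies inside its annotated gene. The VEGFC window lies wholly outside its annotated gene, and no GENCODE transcript was found to match its start. The composite site of ATF4 and CHOP, TGATGNAA on either strand, was found in 0 of the 7 member windows, against 3.19% of all windows and 1.46% of those of tested genes. The AP-1 site TGANTCA was found in 1, that of CA9, against 6.60% and 4.23%. No matches of different motifs overlapped. These are letter matches in short windows, and no binding was measured.

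Among the secreted ligands, the 2 vascular endothelial growth factors stood in opposite order. VEGFA (ENSG00000112715, chr6:43770184-43786487, plus strand, positions here and below on GRCh38), the main growth factor of blood vessel endothelium, had 587, 603 and 619 CPM in the libraries labelled KD_OE, 157, 146 and 142 CPM in those labelled KD_NC and 173, 188 and 177 CPM in those labelled NC_NC. The 3 groups did not overlap, and the libraries labelled KD_OE stood far above the others. The log2 difference was 2.02 ± 0.0839 (SE) for KD_OE against KD_NC, with a 95% interval of 1.85 to 2.20, and 1.75 ± 0.0832 for KD_OE against NC_NC. The libraries labelled KD_NC stood 1.21-fold below those labelled NC_NC (log2 -0.27 ± 0.0817, 95% interval -0.44 to -0.10). This small difference was not called in 4 alternatives. Among these, it shrank to -0.10 after a correction for GC content and gene length and was -0.24 without the second library labelled NC_NC.

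VEGFC (ENSG00000150630, chr4:176683538-176792727, minus strand), the growth factor of lymphatic endothelium, had 27.2, 26.3 and 27.6 CPM in the libraries labelled KD_OE, 42.7, 43.5 and 50.7 CPM in those labelled KD_NC and 20.9, 22.2 and 22.3 CPM in those labelled NC_NC. It was highest in every library labelled KD_NC. The log2 difference was 1.07 ± 0.104 for KD_NC against NC_NC and -0.76 ± 0.102 for KD_OE against KD_NC. The libraries labelled KD_OE lay above those labelled NC_NC without overlap, by 1.24-fold (log2 0.31 ± 0.105), and this was not called without the third library labelled KD_OE (log2 0.29), without the first labelled NC_NC (0.27) or with no filter on low counts (0.30). The summed endothelial markers were also highest in the libraries labelled KD_NC. Of these, CDH5 had 13.7 ± 0.482 CPM in KD_OE, 43.2 ± 2.93 CPM in KD_NC and 14.8 ± 2.40 CPM in NC_NC. VWF had 2.61 ± 0.295, 2.44 ± 0.354 and 5.67 ± 0.564 CPM and EGFL7 26.9 ± 5.55, 41.8 ± 8.60 and 42.6 ± 0.919 CPM in the same groups, and KDR and EMCN were at 0.

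ANGPTL4 (ENSG00000167772, chr19:8363289-8374373, plus strand), a secreted inhibitor of lipoprotein lipase that also acts on vessels, had 2.72, 2.54 and 2.33 CPM in the libraries labelled KD_OE, 17.4, 15.8 and 18.9 CPM in those labelled KD_NC and 6.97, 6.54 and 7.07 CPM in those labelled NC_NC. Each group stood apart, with the libraries labelled KD_OE lowest. Its log2 difference was 1.34 ± 0.139 for KD_NC against NC_NC, -2.78 ± 0.156 for KD_OE against KD_NC and -1.44 ± 0.166 for KD_OE against NC_NC. It was the only member called lower in KD_OE than in NC_NC. Its annotated exons share 1 base with RAB11B-AS1 on the other strand.

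ADM (ENSG00000148926, chr11:10304680-10307397, plus strand), which encodes the vasodilator peptide adrenomedullin, had 26.0, 27.0 and 30.8 CPM in the libraries labelled KD_OE, 20.7, 21.5 and 22.4 CPM in those labelled KD_NC and 12.6, 15.1 and 12.8 CPM in those labelled NC_NC. It stood in 3 steps with no overlap, highest in the libraries labelled KD_OE and lowest in those labelled NC_NC. In log2 units ADM differed by 0.67 ± 0.119 for KD_NC against NC_NC, 1.05 ± 0.118 for KD_OE against NC_NC and 0.38 ± 0.114 for KD_OE against KD_NC. The last of these was not called without the third library labelled KD_OE (log2 0.30).

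The stanniocalcins were a second pair in opposite order. STC1 (ENSG00000159167, chr8:23841915-23854807, minus strand) had 6.54, 7.62 and 8.99 CPM in the libraries labelled KD_OE, 49.0, 56.9 and 42.4 CPM in those labelled KD_NC and 4.60, 5.48 and 4.74 CPM in those labelled NC_NC. All libraries labelled KD_NC stood several-fold above all others, and the coefficient of variation was 15.9% in KD_OE, 14.7% in KD_NC and 9.61% in NC_NC. The log2 difference was 3.32 ± 0.151 for KD_NC against NC_NC (95% interval 3.00 to 3.63) and -2.68 ± 0.142 for KD_OE against KD_NC. The libraries labelled KD_OE stayed 1.56-fold above those labelled NC_NC (log2 0.64 ± 0.164). STC2 (ENSG00000113739, chr5:173314713-173329503, minus strand) had 339, 345 and 359.7 CPM in the libraries labelled KD_OE, 115, 107 and 98.3 CPM in those labelled KD_NC and 169, 190.1 and 169 CPM in those labelled NC_NC. Its groups did not overlap, with the order KD_OE, NC_NC and KD_NC from high to low. The log2 difference of STC2 was 1.71 ± 0.0891 for KD_OE against KD_NC, 0.98 ± 0.0873 for KD_OE against NC_NC and -0.72 ± 0.0878 for KD_NC against NC_NC.

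Because of these opposite orders, the balance within each pair differed between groups. Per kilobase of exon, STC1 made up 2.77, 3.16 and 3.56% of STC1 plus STC2 in the libraries labelled KD_OE, 38.7, 44.0 and 38.9% in those labelled KD_NC and 3.86, 4.09 and 3.98% in those labelled NC_NC. STC2 was thus the more abundant stanniocalcin in all 9 libraries. VEGFC made up 21.1 ± 0.505% of VEGFC plus VEGFA (SD, n = 3) in the libraries labelled KD_OE, 64.7 ± 3.11% in those labelled KD_NC and 42.1 ± 0.789% in those labelled NC_NC. Its level per kilobase exceeded that of VEGFA in every library labelled KD_NC and in no other library. The length used was that of all annotated exons joined, 14431 bases for VEGFA and 2420 for VEGFC. The share would be another with another choice of transcript, and the order of VEGFA and VEGFC could change. Not divided by length, VEGFA averaged 148 ± 7.49 CPM in the libraries labelled KD_NC, above the 45.6 ± 4.43 CPM of VEGFC.

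**Figure D2:**
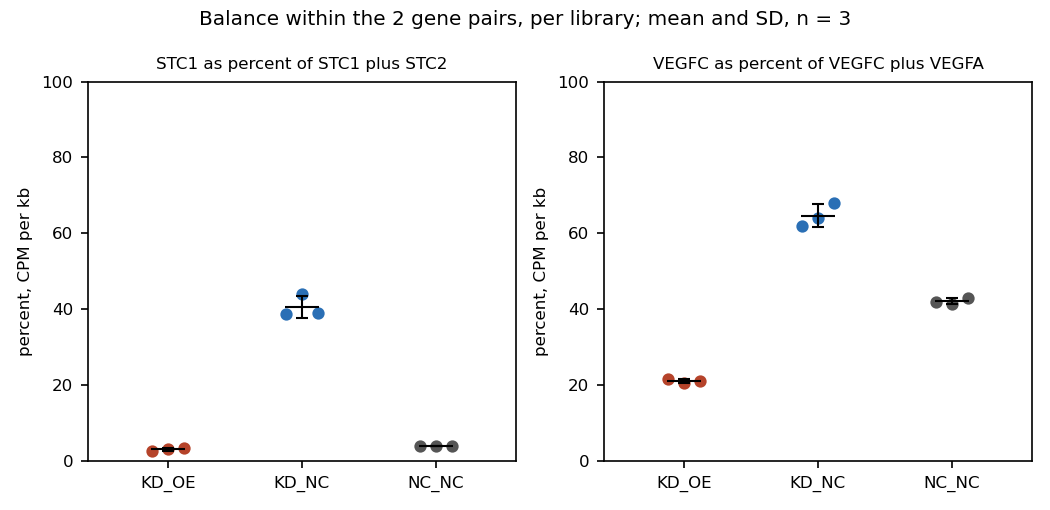
Share of STC1 in STC1 plus STC2 (left) and of VEGFC in VEGFC plus VEGFA (right), in percent of CPM per kilobase on axes from 0 to 100, for libraries labelled KD_OE, KD_NC and NC_NC. Points are libraries and bars the mean and SD (n = 3). Both shares are highest in the KD_NC libraries, at 40.5 and 64.7% on average. Lengths are those of all annotated exons joined, and the shares depend on that choice.

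Of the oxygen-sensing and effector members, EGLN3 (ENSG00000129521, chr14:33924231-34462774, minus strand), a HIF prolyl hydroxylase that is itself induced by HIF, had 64.9, 61.8 and 54.0 CPM in the libraries labelled KD_OE, 46.7, 50.5 and 58.8 CPM in those labelled KD_NC and 33.9, 35.4 and 32.5 CPM in those labelled NC_NC. It stood higher than in the NC_NC-labelled libraries under both other labels, by log2 0.83 ± 0.108 in KD_OE and 0.62 ± 0.108 in KD_NC. The libraries labelled KD_OE and KD_NC overlapped, with a difference of 0.21 ± 0.105 and a 95% interval of -0.007 to 0.43. That difference was called without the third library labelled KD_NC (log2 0.30) and with upper-quartile scaling (0.27).

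CA9 (ENSG00000107159, chr9:35673856-35681159, plus strand), the membrane carbonic anhydrase IX, was close to the limit of the data. It had 10, 15 and 10 counts in the libraries labelled KD_OE, 32, 34 and 32 in those labelled KD_NC, and 4, 6 and 16 in those labelled NC_NC. The KD_NC-labelled libraries stood above all others, and the other 2 groups overlapped. The log2 difference was 1.73 ± 0.424 for KD_NC against NC_NC, and 2.50 without the third library labelled NC_NC. It was -1.35 ± 0.405 for KD_OE against KD_NC and 0.38 ± 0.475 for KD_OE against NC_NC (95% interval -0.61 to 1.38), with 1.14 for the last without that same NC_NC library. CA9 is uncertain, since 643 of its 1670 exon bases are shared with ARHGEF39 on the other strand, which had 1348 counts over the 9 libraries against 159 for CA9. ARHGEF39 averaged 6.94 ± 1.17 CPM in the libraries labelled KD_OE, 8.37 ± 1.08 in those labelled KD_NC and 11.4 ± 0.985 in those labelled NC_NC. Its part in the CA9 counts was not tested.

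NDRG1 (ENSG00000104419, chr8:133237171-133302022, minus strand), a cytoplasmic protein linked to stress and differentiation, had 879.6, 912 and 995 CPM in the libraries labelled KD_OE, 651, 601 and 629 CPM in those labelled KD_NC and 363, 379 and 374 CPM in those labelled NC_NC. Like ADM it stood in 3 steps with no overlap. In log2 units NDRG1 differed by 1.32 ± 0.0837 for KD_OE against NC_NC, 0.75 ± 0.0829 for KD_NC against NC_NC and 0.57 ± 0.0824 for KD_OE against KD_NC. BNIP3 (ENSG00000176171, chr10:131966455-131982013, minus strand), a mitochondrial outer membrane protein that takes part in mitophagy, had 59.8, 64.1 and 60.3 CPM in the libraries labelled KD_OE, 74.1, 70.8 and 84.1 CPM in those labelled KD_NC and 48.2, 51.0 and 48.2 CPM in those labelled NC_NC. It was highest in the libraries labelled KD_NC, by log2 0.63 ± 0.0937 over NC_NC, and the libraries labelled KD_OE lay between the other groups. Their log2 difference was -0.31 ± 0.0929 from KD_NC and 0.32 ± 0.0942 from NC_NC. BNIP3 has processed pseudogenes that could take some of its reads, of which BNIP3P11 held the most, 208 counts against 9532 for BNIP3.

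**Figure D3:**
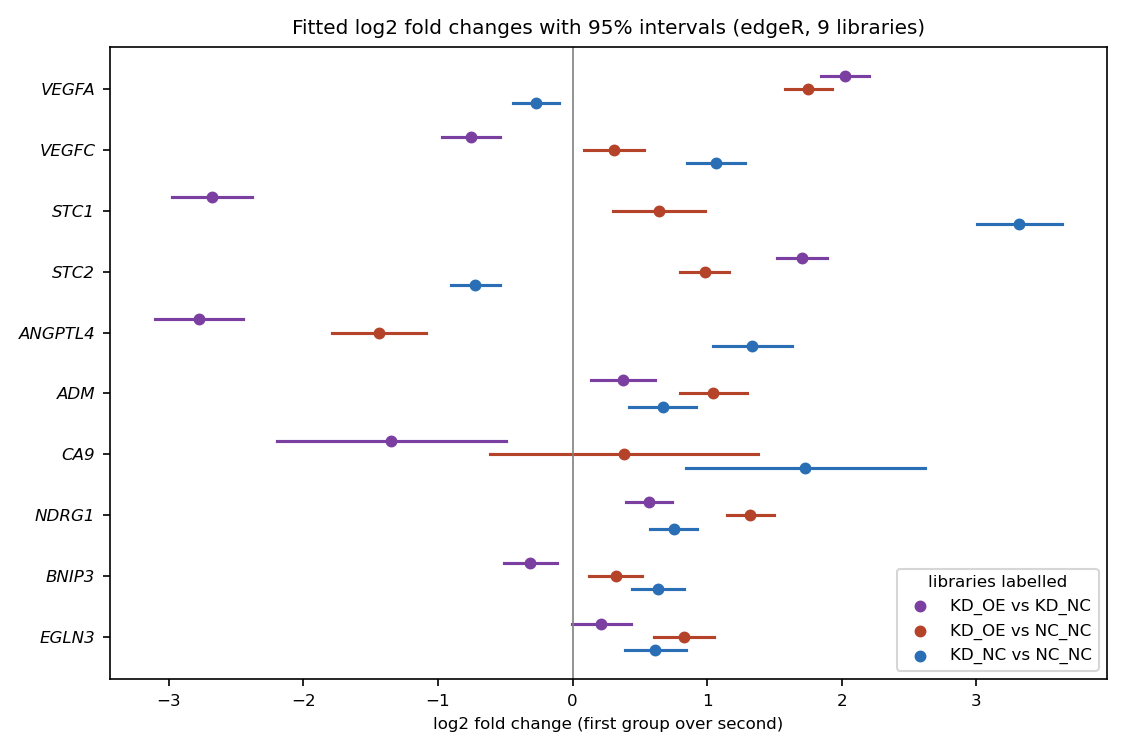
Fitted log2 fold change of each gene with its 95% interval (edgeR, 9 libraries), for KD_OE against KD_NC, KD_OE against NC_NC and KD_NC against NC_NC by label. The intervals cross 0 only for EGLN3 (KD_OE against KD_NC) and CA9 (KD_OE against NC_NC), and STC1 in KD_NC against NC_NC lies farthest from 0, at 3.32.

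Per kilobase of exon, NDRG1 was the most abundant member under every label, at 94.6 ± 6.08, 63.8 ± 2.53 and 37.9 ± 0.855 CPM per kilobase in KD_OE, KD_NC and NC_NC (SD, n = 3 each). In the libraries labelled KD_OE, STC2 (56.8 ± 1.73) and VEGFA (41.8 ± 1.11) came next and were clear of the rest. BNIP3 (11.5 ± 0.438), VEGFC (11.2 ± 0.276) and ADM (10.3 ± 0.929) followed, each within about the spread of its neighbour. In the libraries labelled KD_NC, VEGFC (18.9 ± 1.83) and STC2 (17.4 ± 1.33) came after NDRG1 and did not differ beyond their spread. BNIP3 (14.3 ± 1.31), STC1 (11.9 ± 1.75) and VEGFA (10.3 ± 0.519) followed, the last pair within the spread of STC1. ADM (7.92 ± 0.313), EGLN3 (7.06 ± 0.846) and ANGPTL4 (6.99 ± 0.623) lay close together below them. In the libraries labelled NC_NC, STC2 (28.7 ± 1.99) and VEGFA (12.4 ± 0.537) came after NDRG1, and then BNIP3 (9.23 ± 0.309) and VEGFC (9.01 ± 0.320), which did not differ beyond their spread. ADM (4.97 ± 0.524) and EGLN3 (4.61 ± 0.196) did not differ beyond their spread either, and STC1 (1.19 ± 0.114) stood below ANGPTL4 (2.76 ± 0.113). CA9 was lowest under every label, at 0.422 ± 0.0938, 1.08 ± 0.0614 and 0.321 ± 0.234 CPM per kilobase. The order rests on all annotated exons joined, 14431 bases for VEGFA and 4149 for STC1, and could change with another transcript. Not divided by length, VEGFA averaged 148 CPM in the libraries labelled KD_NC, above the 49.4 CPM of STC1.

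The gene lists here and below were chosen with earlier results of these data known, so their counts are a description. Some genes stand in more than 1 list, so the lists are not separate sets. The machinery that controls HIF was measured for 15 of 16 listed genes. For KD_NC against NC_NC, 6 rose and 2 fell. For KD_OE against KD_NC, 1 rose and 6 fell, and for KD_OE against NC_NC 3 rose and 6 fell. Of all genes tested, 16.0% rose and 18.5% fell for KD_NC against NC_NC. The shares were 23.7% and 25.6% for KD_OE against KD_NC, and 27.9% and 28.4% for KD_OE against NC_NC. HIF1A, the alpha subunit of HIF-1, averaged 335 ± 37.6 CPM in the libraries labelled KD_OE, 270.4 ± 43.9 CPM in those labelled KD_NC and 171 ± 21.4 CPM in those labelled NC_NC (SD, n = 3 each). It rose in KD_NC over NC_NC (log2 0.66, edgeR adjusted p = 0.000276) and again in KD_OE over KD_NC (log2 0.31, adjusted p = 0.0350). Its order of group means was that of ADM and NDRG1. Unlike them, HIF1A overlapped between the libraries labelled KD_OE (295 to 369 CPM) and KD_NC (237 to 320 CPM). EPAS1, the alpha subunit of HIF-2, averaged 93.3 ± 2.04, 168 ± 17.0 and 129 ± 1.68 CPM in KD_OE, KD_NC and NC_NC. EPAS1 fell in KD_OE against KD_NC (log2 -0.85, edgeR adjusted p = 2.55e-07) and rose in KD_NC over NC_NC (log2 0.39, adjusted p = 0.00210), the group order of ANGPTL4. CITED2, which competes with HIF for its coactivators, was also highest in KD_NC, at 51.2 ± 3.86 CPM against 30.9 ± 2.93 CPM in NC_NC (log2 0.73, edgeR adjusted p = 3.85e-05). Its relative CITED4 averaged 20.8 ± 1.17, 42.8 ± 15.0 and 65.2 ± 1.13 CPM in KD_OE, KD_NC and NC_NC, and fell in every contrast as written. ARNT (61.2, 57.6 and 55.4 CPM), VHL (122, 115 and 125 CPM) and the hydroxylase EGLN2 (5.29, 4.02 and 5.55 CPM) were not called in any contrast. EGLN1, the main oxygen-sensing hydroxylase, rose in KD_NC over NC_NC (log2 0.41, edgeR adjusted p = 0.00102), while HIF1AN, the asparaginyl hydroxylase that blocks HIF, fell (log2 -0.43, adjusted p = 0.000605). HIF protein was not measured.

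Of 44 other hypoxia-responsive genes 42 were tested. For KD_NC against NC_NC, 21 rose, 3 fell and 18 were not called, with a median log2 difference of 0.32. For KD_OE against KD_NC, 17 rose and 16 fell, with a median of 0.02. For KD_OE against NC_NC, 27 rose and 6 fell, with a median of 0.62. Over all genes tested, 16.0% rose and 18.5% fell in KD_NC against NC_NC. The shares were 23.7% and 25.6% in KD_OE against KD_NC, and 27.9% and 28.4% in KD_OE against NC_NC. LOX, the collagen cross-linking enzyme, had 6.14 ± 0.405 CPM in KD_OE, 17.3 ± 1.18 in KD_NC and 1.74 ± 0.284 in NC_NC. It rose 9.87-fold in KD_NC over NC_NC (edgeR adjusted p = 7.66e-11), and its exons share 138 bases with SRFBP1 on the other strand. P4HA1, a subunit of collagen prolyl hydroxylase, stood at 103 ± 5.26 CPM in KD_OE and 106 ± 10.3 CPM in KD_NC, against 44.3 ± 5.34 CPM in NC_NC. LDHA, which makes lactate from pyruvate, fell 2.37-fold in KD_OE against KD_NC (edgeR adjusted p = 3.18e-09), to 548 ± 11.6 CPM against 1297 ± 150.0 CPM, with 951 ± 31.6 CPM in NC_NC. DDIT4, an inhibitor of mTORC1 signalling, rose 3.48-fold in the same contrast (edgeR adjusted p = 3.70e-07), as did WSB1, a ubiquitin ligase adaptor (2.44-fold, adjusted p = 4.48e-09). DDIT4 was also listed with the integrated stress response below, and its calls count in both lists. HILPDA, a lipid droplet protein, fell 2.19-fold in KD_OE against NC_NC (edgeR adjusted p = 8.74e-07).

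Of 36 other listed ligands and inhibitors of vessel growth, 24 were tested. For KD_NC against NC_NC 9 rose and 5 fell, for KD_OE against KD_NC 8 rose and 7 fell, and for KD_OE against NC_NC 11 rose and 4 fell. Over all genes tested, 16.0% were called higher and 18.5% lower in KD_NC against NC_NC. The shares were 23.7% and 25.6% in KD_OE against KD_NC, and 27.9% and 28.4% in KD_OE against NC_NC. Nothing particular to the ligands is read from these counts. PDGFB, a growth factor for pericytes, rose 3.03-fold in KD_NC over NC_NC (edgeR adjusted p = 1.77e-09), and SEMA3A, a class 3 semaphorin, rose 3.21-fold (adjusted p = 3.36e-08). SEMA3C averaged 241 ± 22.7, 165 ± 8.89 and 76.6 ± 8.67 CPM in KD_OE, KD_NC and NC_NC, the same order as ADM. ADM2, the paralogue of ADM, had another order, with 11.7 ± 1.21 CPM in KD_OE, 2.03 ± 0.269 CPM in KD_NC and 5.14 ± 1.09 CPM in NC_NC. It rose 5.75-fold in KD_OE over KD_NC (edgeR adjusted p = 6.22e-09) and fell 2.54-fold in KD_NC against NC_NC (adjusted p = 6.20e-05), the order of VEGFA and STC2. CALCB, of the same peptide family, rose 16.4-fold in KD_OE over KD_NC (edgeR adjusted p = 1.52e-07), with only 3 to 6 counts in each library labelled KD_NC. VEGFB had 17.7 ± 0.579, 12.3 ± 1.80 and 21.3 ± 2.78 CPM, and fell in KD_NC against NC_NC (log2 -0.79, edgeR adjusted p = 0.000155). PGF averaged 3.13, 3.74 and 4.90 CPM and was not called in any contrast. FGFBP1, which releases fibroblast growth factors from the matrix, fell 2.96-fold in KD_OE against KD_NC (edgeR adjusted p = 1.29e-08).

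Of 18 listed receptors of these ligands, 7 passed the filter on low counts. KDR, the main receptor of VEGFA on endothelium, had 0 counts in all 9 libraries, below 0.152 to 0.198 CPM by the limit of 3 counts, which covers counting error only. FLT1, and CALCRL and RAMP1, which form receptors for adrenomedullin and related peptides, had some counts but did not pass the filter. FLT4, the receptor of VEGFC, was tested but averaged only 0.667 ± 0.182, 0.150 ± 0.124 and 0.654 ± 0.201 CPM in KD_OE, KD_NC and NC_NC. The coreceptor NRP1 had 37.7 ± 1.35 CPM in KD_OE, 42.3 ± 3.92 CPM in KD_NC and 18.6 ± 0.115 CPM in NC_NC, and rose 2.28-fold in KD_NC over NC_NC (edgeR adjusted p = 8.28e-08). NRP2, the coreceptor linked to VEGFC, rose 2.92-fold in the same contrast (edgeR adjusted p = 3.51e-05) and fell 3.58-fold in KD_OE against KD_NC (adjusted p = 2.51e-06). Like VEGFC, NRP2 had its highest level in KD_NC, at 7.77 ± 2.04 CPM. Over the list, 4 rose and 3 fell for KD_NC against NC_NC, where 16.0% of all genes tested rose and 18.5% fell. For KD_OE against KD_NC, 2 rose and 2 fell, against 23.7% and 25.6% of all genes. For KD_OE against NC_NC, 3 rose and 1 fell, against 27.9% and 28.4%.

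Of 11 listed partners of the stanniocalcins, 7 were tested. PAPPA, the protease that STC1 and STC2 inhibit, did not pass the filter. Its relative PAPPA2 averaged 3.31 ± 0.350 CPM in KD_OE, 0.744 ± 0.127 CPM in KD_NC and 1.36 ± 0.431 CPM in NC_NC, and rose 4.44-fold in KD_OE over KD_NC (edgeR adjusted p = 1.42e-05), the direction of STC2. IGFBP4, the substrate of PAPPA, had 20.4 ± 1.09, 28.4 ± 5.40 and 32.4 ± 4.95 CPM, and fell in KD_OE against KD_NC (log2 -0.47, edgeR adjusted p = 0.00893). IGFBP3, the main carrier of insulin-like growth factors in blood, rose 3.41-fold in KD_NC over NC_NC (edgeR adjusted p = 5.80e-11), to 324 ± 22.1 CPM against 94.9 ± 6.84 CPM, and had 237 ± 9.40 CPM in KD_OE. Over the list, 1 rose and 1 fell for KD_NC against NC_NC, where 16.0% of all genes tested rose and 18.5% fell. For KD_OE against KD_NC, 2 rose and 2 fell, against 23.7% and 25.6% of all genes. For KD_OE against NC_NC, 3 rose and 1 fell, against 27.9% and 28.4%. Without single libraries, the number called for KD_NC against NC_NC was 1 to 3 genes. It was 1 without the first or second library labelled KD_OE, the third labelled KD_NC, or the first or second labelled NC_NC.

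Of 25 paralogues of the members 17 were tested, with 2 risen and 6 fallen for KD_NC against NC_NC, 4 and 5 for KD_OE against KD_NC, and 5 and 8 for KD_OE against NC_NC. The 8 calls of the first contrast were 5 without the second library labelled KD_NC or the first or second labelled NC_NC. For KD_OE against KD_NC the counts lie near the 23.7% and 25.6% called over all genes tested. Those shares were 16.0% and 18.5% for KD_NC against NC_NC, and 27.9% and 28.4% for KD_OE against NC_NC. BNIP3L, like BNIP3 a mitophagy receptor, fell in KD_NC against NC_NC (log2 -0.26, edgeR adjusted p = 0.0448) and rose in KD_OE over KD_NC (log2 0.85, adjusted p = 8.67e-07), where BNIP3 stood in the opposite directions. NDRG3 fell 1.85-fold in KD_OE against NC_NC (edgeR adjusted p = 5.46e-07), where NDRG1 stood higher. The carbonic anhydrase CA2 fell 1.88-fold in that contrast (edgeR adjusted p = 1.03e-07), and CA12, often measured with CA9, did not pass the filter.

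The integrated stress response was listed because VEGFA and STC2 are also among its known targets. The list was chosen with earlier results of these data known, so nothing is read from its counts against the shares of all genes. Of its 21 listed genes 20 were tested. For KD_OE against KD_NC, 18 rose, 0 fell and 2 were not called, with a median log2 difference of 1.65, where VEGFA and STC2 stood higher by 2.02 and 1.71. For KD_NC against NC_NC, 5 rose and 13 fell, with a median of -0.49, where VEGFA and STC2 stood lower, with log2 differences of -0.27 and -0.72. For KD_OE against NC_NC, 15 rose and 1 fell, with a median of 1.12, where they stood higher by 1.75 and 0.98. The 1 that fell was ATF5, whose exons share 626 bases with NUP62 on the other strand. Of all genes tested, 23.7% rose and 25.6% fell for KD_OE against KD_NC. The shares were 16.0% and 18.5% for KD_NC against NC_NC, and 27.9% and 28.4% for KD_OE against NC_NC. HSPA5, the chaperone BiP of the endoplasmic reticulum, averaged 5205 ± 81.0 CPM in KD_OE, 1792 ± 170.1 CPM in KD_NC and 672 ± 16.0 CPM in NC_NC. It rose in all 3 contrasts as written. HERPUD1, of endoplasmic reticulum-associated degradation, rose 4.01-fold in KD_OE over KD_NC (edgeR adjusted p = 2.91e-12). DDIT3, the transcription factor CHOP, rose 6.77-fold (adjusted p = 6.64e-12), with 355 of its exon bases shared with MARS on the other strand. SESN2, a stress-induced inhibitor of mTORC1, and PHGDH, the first enzyme of serine synthesis, fell in KD_NC against NC_NC (log2 -1.10 and -1.12, edgeR adjusted p = 1.63e-07 and 2.88e-08) and rose in KD_OE over KD_NC (log2 1.84 and 1.30, adjusted p = 6.37e-11 and 1.56e-09). Whether these genes and VEGFA or STC2 share a control was not tested.

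**Figure D4:**
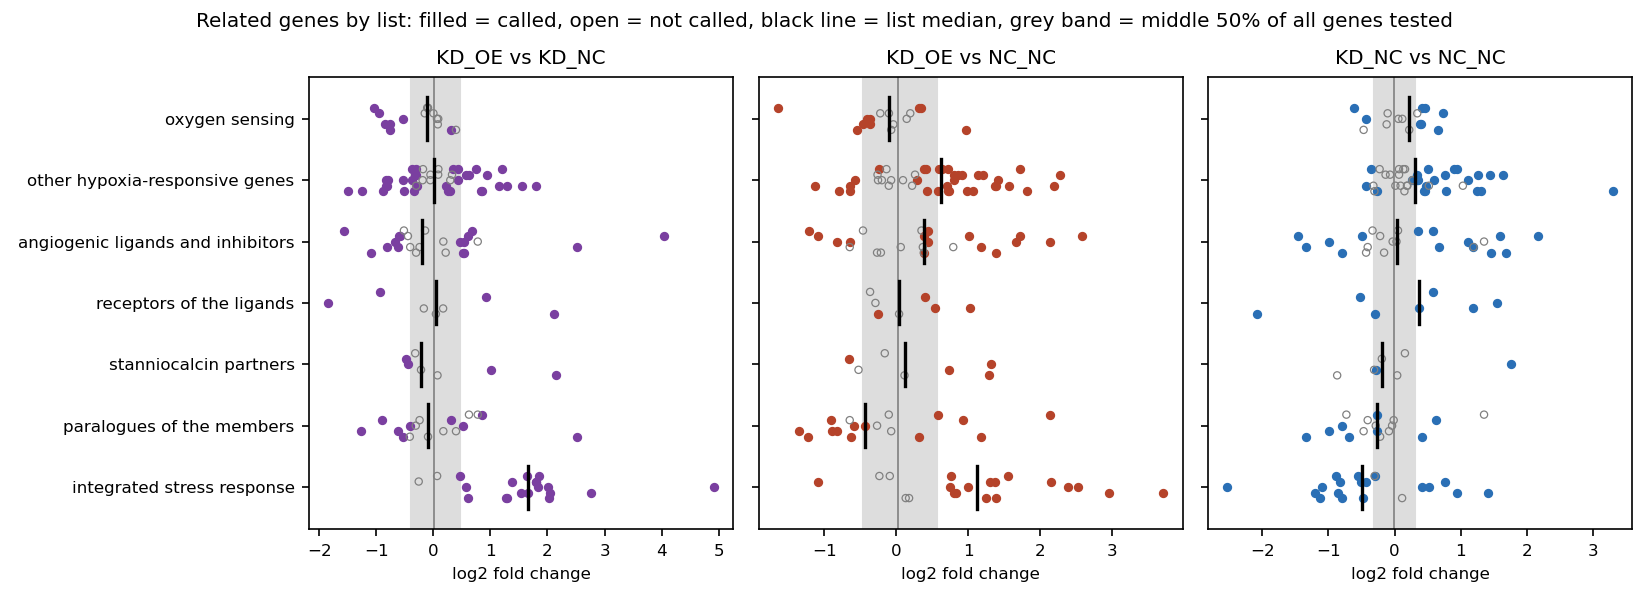
Log2 fold changes of related genes in 7 lists (rows) for KD_OE against KD_NC, KD_OE against NC_NC and KD_NC against NC_NC by label. Filled points were called at an adjusted p under 0.05 and open points were not, the black line is the list's median and the grey band holds the middle 50% of all genes tested. The integrated stress response has its median at 1.65, 1.12 and -0.49 in the 3 panels, and the other hypoxia-responsive genes at 0.02, 0.62 and 0.32.

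The genes most like each member were taken by the distance between their log2 differences in KD_NC against NC_NC and in KD_OE against KD_NC, over 10358 other protein-coding genes. Both contrasts use the libraries labelled KD_NC, and the distances are a description. ASPM lay nearest to STC2, at 0.0023, and NEBL nearest to VEGFA, at 0.072. For VEGFC it was GALNT3, at 0.038, for ADM TBC1D23, at 0.013, for NDRG1 CALCOCO1, at 0.016, for BNIP3 NCOA7, at 0.0092, for EGLN3 PC, at 0.018, and for CA9 FHDC1, at 0.067. STC1 and ANGPTL4 had no such near neighbour. The nearest to STC1 were ADAM12 and MMP1, at 0.536 and 0.559, and the nearest to ANGPTL4 were ARRDC4 and S100A9, at 0.250 and 0.262.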

How the data were processed

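RNA was measured by bulk RNA sequencing in 9 FaDu libraries, with groups and replicates taken from the sample titles. The authors deposited 1 table of raw counts per gene, not normalized. The submitters' processing notes name featureCounts 1.5.0-p3, HISAT2 2.0.5, StringTie 1.3.3b and the build hg19, and give no roles. The coordinates of 58735 of 58735 genes in the deposited table equal those of GENCODE v29 on GRCh38, so positions are given on GRCh38. The kit named in the labels' protocols does not mark strand. How reads with several matches, or in more than 1 gene, were counted is not given in the sources used here. Counts of genes with overlapping exons or near-identical copies are uncertain to that extent.

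Genes were filtered with filterByExpr of edgeR 4.0.16 (minimum count 10) in R 4.3.3, which left 16812, and libraries were scaled with TMM factors. All 9 libraries entered 1 quasi-likelihood model (glmQLFit, a coefficient for each group, robust) and contrasts were tested with glmQLFTest, with Benjamini-Hochberg adjustment over all genes tested and a threshold of 0.05. The SE was derived from F, as |log2 fold change| over its square root. CPM were computed from the counts with the TMM factors, and intervals are at 95%. The same steps were tested on simulated data. Totals per library were 15158607 to 19737562 counts.

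The members, the gene lists and the rule for named genes were chosen with earlier results of these data known. The rule named the members, AMIGO2 and CAPN2, a fixed set of regulators, receptors and partners, and in each list and contrast up to 2 genes called higher and 2 called lower with the lowest adjusted p. For each member it also named the 2 nearest protein-coding genes with a mean of at least 5 CPM. ARHGEF39, and CDH5, VWF, EGFL7, KDR and EMCN as markers, were named for their bearing on a member, and some genes that the rule named are not reported here. Alternatives were upper-quartile and relative log expression factors, DESeq2 1.42.0, no filter on low counts, a fit to the compared groups alone, a replicate block, a correction for GC content and length, and leaving out each library. RefSeq windows of 250 bases were searched on both strands for the motifs.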

Additional observations from a re-analysis of the deposited data

How the results depend on the processing

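The 3 contrasts of the 10 genes gave 30 log2 differences. Under 16 alternatives these gave 480 values, of which 470 stayed on the same side of the threshold, 8 lost and 2 gained a call, and 0 turned in sign among called values. The lost calls were of VEGFA for KD_NC against NC_NC, with log2 values of -0.25, -0.25, -0.10 and -0.24, VEGFC for KD_OE against NC_NC (0.30, 0.29 and 0.27) and ADM for KD_OE against KD_NC without the third library labelled KD_OE (0.30). The number of members called lower in KD_NC against NC_NC was therefore 1 in place of 2 with no filter on low counts, with only the compared groups fitted and with the GC and length correction, and 1 to 2 when single libraries were left out, with 1 without the second labelled NC_NC. Called stanniocalcin partners in that contrast numbered 2, with 1 under upper-quartile factors, 1 with only the compared groups, 4 with the GC and length correction and 1 to 3 without single libraries. Called paralogues numbered 8, and 5 to 7 without single libraries. Upper-quartile factors moved the median of all genes in KD_OE against NC_NC to 0.126, against 0.023 with TMM. No pairing by the replicate numbers of the titles was seen, as deviations of same-numbered libraries were correlated at only -0.111 to 0.063. Libraries of different numbers were not set beside them, and whether cultures were handled in pairs was not tested. With the replicate block, members called higher and lower were 8 and 2 for KD_NC against NC_NC, 4 and 5 for KD_OE against KD_NC, and 8 and 1 for KD_OE against NC_NC. Libraries labelled KD_NC were least alike, with a mean chi-square per gene of 20.9 to 21.5 between them, against 3.01 to 7.52 in KD_OE and 2.69 to 5.04 in NC_NC. The fit takes 1 spread per gene from all groups. Depth limits CA9, which had 4 to 34 counts per library.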
